A study of Mus musculus with 8 samples.

Results

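Kinesins are motor proteins that use ATP to walk along microtubules. In developing neurons they carry vesicles, organelles and RNA into axons and dendrites, in cilia they move building material and set cilium length, and in dividing progenitors they build the spindle and separate chromosomes. Some motors work with accessory subunits: the light chains tie kinesin-1 heavy chains to cargo, and Kifap3 joins the heterotrimeric kinesin-2. The genes described here are 36 kinesin motor and subunit genes of the mouse, chosen by symbol from a named list, and all 36 were found among the 27179 genes counted. The list was put together as kinesins that act outside mitosis. That label does not hold for 7 of its members (Kif4, Kif15, Kif18a, Kif18b, Kif20b, Kif22 and Kifc1), which are known for work on the spindle, chromosomes or the dividing midbody, so the set is called here the kinesin genes.

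Polyadenylated RNA was sequenced from the cerebral cortex of mouse embryos in 2 groups of 4 libraries, each from its own embryo. The Taf8-deleted group carried the genotype Taf8 -/lox, 1 null and 1 lox allele, and the Taf8 wild-type group was Taf8 +/+. The Taf8 protein belongs to TFIID, a general transcription factor that recognises core promoters and recruits RNA polymerase II. The sources used here give neither the Cre driver, nor the cells in which the lox allele was recombined, nor the embryonic day or strain. Values are CPM, the gene's counts per 1e6 counts of the scaled library, and n = 4 embryos per group throughout. A count of 3 corresponds to 0.0458 to 0.114 CPM in these libraries, and the kinesin genes had 20 to 71922 counts each.

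Taf8 itself had 0.791, 0.747, 0.486 and 0.547 CPM in the Taf8-deleted libraries, against 38.5, 35.0, 32.0 and 33.7 CPM in the wild-type libraries, so the labels held in every library. The cortical neuron marker Tbr1 was present in both groups, at 301 ± 31.7 CPM in Taf8-deleted and 393 ± 16.4 CPM in wild-type cortex (SD). Animal numbers 408.4, 408.5 and 408.6 of wild-type replicates 1 to 3 share their first part, and no first part occurs in both groups. If it stands for a litter or batch, that and the genotype cannot be told apart, and the wild-type spread may be that of littermates. Choroid plexus markers stood highest in Taf8-deleted replicate 1 (summed 1267 CPM) and wild-type replicate 4 (427 CPM), against 15.99 to 208 CPM in the other Taf8-deleted libraries and 16.8 to 24.5 CPM in the other wild-type libraries. Wild-type replicate 3 stood apart in another way, with neuron markers at a summed 10090 CPM against 8542 to 8851 CPM in the other wild-type libraries.

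Of the 36 kinesin genes, 12 were lower in Taf8-deleted cortex, 6 were higher and 18 did not pass the test (edgeR quasi-likelihood test, Benjamini-Hochberg adjusted p under 0.05 over 15649 genes). The lower ones were 33.3% of the kinesin genes, against 29.6% of all genes tested. The higher ones were 16.7%, against 29.5% of all genes tested. In either direction 18 of the 36 kinesin genes were called, against 59.2% of all genes. Most changes were small: only Kif13b (lower), Kif9 and Kif19a (both higher) passed the test with a change of at least 1.5-fold. Kif13b lay just past that line and was under it with upper-quartile scaling (log2 fold change -0.56), with library size alone (-0.55), with a filter of 1 CPM in 4 libraries (-0.58) and without Taf8-deleted replicate 4 (-0.57) or wild-type replicate 1 (-0.58). These 3 genes are 8.33% of the kinesin genes, whereas 20.2% of all genes met the same rule, 9.28% as lower and 10.9% as higher. The median absolute log2 fold change was 0.18 over the kinesin genes and 0.27 over all genes, and the signed medians were -0.02 and 0.01.

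The groups did not overlap in 17 kinesin genes, 47.2% of them, against 53.6% of all genes tested. For each of these 17 an exact two-sided permutation test of log2 CPM gave p = 0.0286, the smallest that 4 against 4 libraries allow. Groups that do not overlap always give this p, so the test restates the separation and adds no support. Kif1c was the only called kinesin gene whose groups overlapped. Against a change of 1.2-fold, edgeR called 5 kinesin genes lower (Kif13b, Kif20b, Kif21a, Kif21b and Kif26a) and 3 higher (Kif9, Kif16b and Kif19a). Of all 15649 genes the same test called 2328 lower and 2307 higher, so such calls were not particular to the kinesin genes.

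**Figure D1:**
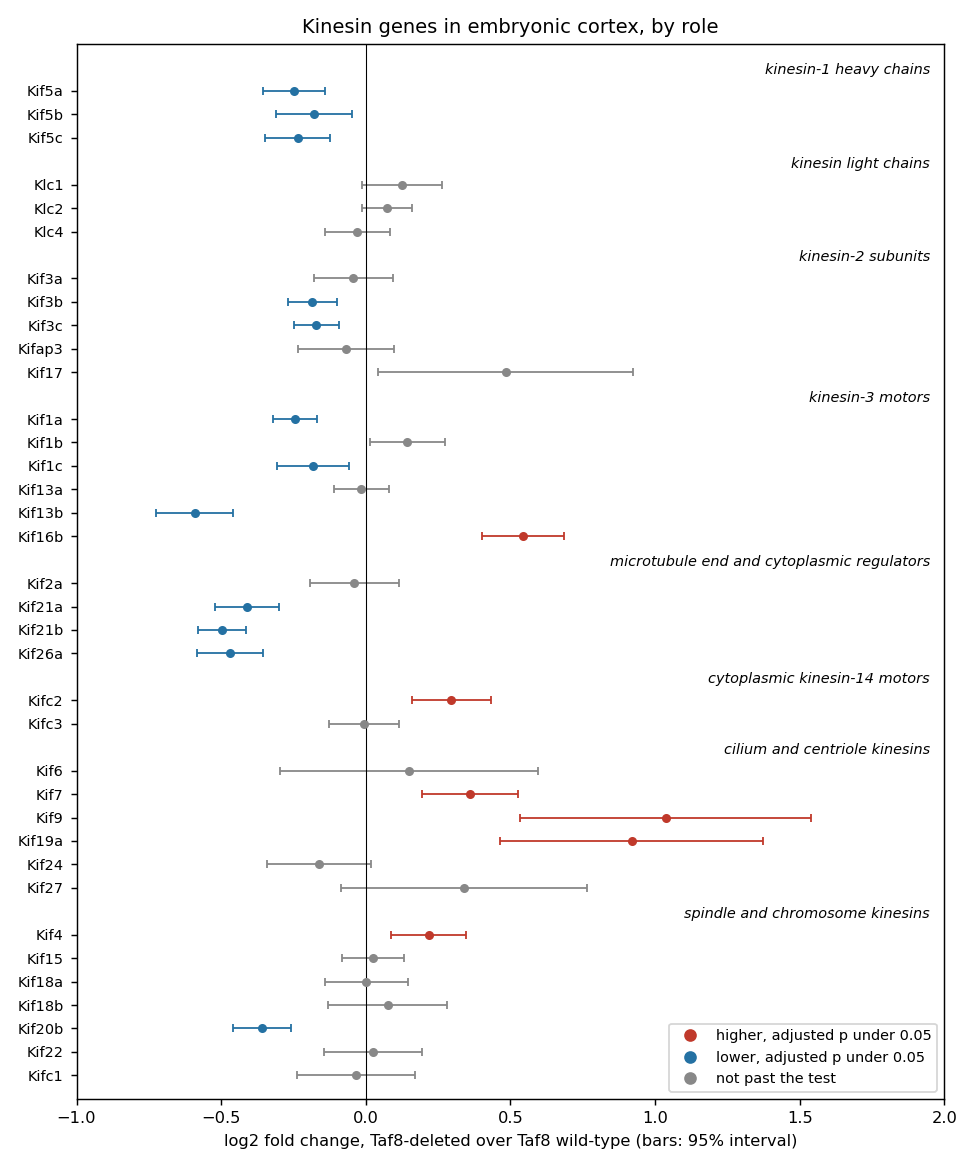
Log2 fold change of each kinesin gene, Taf8-deleted over wild-type cortex (x axis), with its 95% interval, grouped by role. Red points are the 6 genes called higher, blue points the 12 called lower, and grey points the 18 that did not pass. The 3 kinesin-1 heavy chains and the 4 microtubule regulators lie to the left of 0, and among these only the interval of Kif2a crosses 0. The called ciliary genes Kif7, Kif9 and Kif19a lie to the right.

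Compared per length of transcript (CPM per kilobase, RPKM), the light chain gene Klc1 had the highest level, at 176 ± 5.74 RPKM in Taf8-deleted and 161 ± 15.2 RPKM in wild-type cortex (SD). In wild-type cortex Kif21b (124 ± 4.52 RPKM) and Kif5c (121 ± 6.54 RPKM) came next and did not differ beyond their spread. Kif1a (80.2 ± 2.61 RPKM) and Kif1b (61.7 ± 5.02 RPKM) followed. In Taf8-deleted cortex Kif5c (103 ± 5.88 RPKM) stood above Kif21b (87.9 ± 2.81 RPKM), and Kif1b (68.1 ± 3.44 RPKM) and Kif1a (67.7 ± 0.774 RPKM) did not differ beyond their spread. The lowest levels were those of Kif6, Kif17 and Kif19a, each under 1 RPKM in both groups. Summed over all 36 genes, the level was 1063 ± 17.9 RPKM in Taf8-deleted and 1148 ± 15.9 RPKM in wild-type cortex, and the groups did not overlap (1043 to 1084 against 1134 to 1171 RPKM). Such a sum is weighted to the most abundant genes and does not describe each gene. The median log2 fold change of the 36 genes was -0.02, and 18 of them did not pass the test.

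The 3 kinesin-1 heavy chains, the classical motors of axonal transport, were each called lower, by a small amount. Of all genes tested, 29.6% were called lower. Kif5a, a heavy chain enriched in neurons (Entrez gene 16572, chromosome 10, 127225695 to 127266348, mm10), had 268, 270.1, 268 and 287 CPM in Taf8-deleted cortex, against 316, 310.2, 352 and 320.4 CPM in wild-type cortex. Every Taf8-deleted library lay below every wild-type library, and the log2 fold change was -0.25 (SE 0.05, adjusted p = 0.00123). Kif5c, the most abundant heavy chain here, had 709, 667, 686 and 760.3 CPM against 812, 835, 890.3 and 785 CPM in wild-type libraries, also without overlap (log2 fold change -0.23, SE 0.05, adjusted p = 0.00242). Kif5b, the heavy chain that most cell types use, was at 209 to 232 CPM in Taf8-deleted and at 232 to 278 CPM in wild-type libraries. The groups only just did not overlap, and the call of Kif5b was weak (log2 fold change -0.18, adjusted p = 0.0245). It was lost without Taf8-deleted replicate 3 (-0.17, adjusted p = 0.0611). The make-up of the family hardly moved: per length, Kif5c held 57.7 ± 0.835% of the heavy chain level in Taf8-deleted and 58.1 ± 0.648% in wild-type cortex, with overlapping groups.

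None of the light chain genes Klc1, Klc2 and Klc4 passed the test. A scarce light chain gene outside the list, Klc3, was called lower (log2 fold change -0.81, adjusted p = 0.0118). Klc1 had 548, 535, 557 and 516 CPM in Taf8-deleted libraries and 439, 496, 488 and 553 CPM in wild-type libraries. Wild-type replicate 4 lay among the Taf8-deleted values, and without it Klc1 was called higher (log2 fold change 0.17, adjusted p = 0.0219), against 0.13 (adjusted p = 0.105) over all libraries. Without wild-type replicate 1, the lowest of its group, the value was 0.063 (adjusted p = 0.323). The 95% intervals of the log2 fold change were -0.01 to 0.26 for Klc1, -0.01 to 0.16 for Klc2 and -0.14 to 0.08 for Klc4. Those of the heavy chains were -0.35 to -0.14 for Kif5a, -0.31 to -0.05 for Kif5b and -0.35 to -0.12 for Kif5c. The interval of Klc4 overlaps those of Kif5b and Kif5c, and the difference between heavy and light chains was not tested. The summed level of the heavy chains was 179 ± 7.95 RPKM in Taf8-deleted and 209 ± 12.2 RPKM in wild-type cortex. That of Klc1, Klc2 and Klc4 was 235 ± 5.17 and 219 ± 14.8 RPKM in the same order of groups.

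Kinesin-2 carries cargo in axons and moves material out along cilia. Of its 5 genes, the motor subunit Kif3b and the neuronal Kif3c were lower, against 29.6% of all genes tested. Kif3b had 93.0, 94.9, 92.0 and 92.8 CPM in Taf8-deleted and 103, 103, 112 and 106 CPM in wild-type libraries (log2 fold change -0.18, SE 0.04, adjusted p = 0.00175). Kif3c had 259.7 to 271 CPM in Taf8-deleted and 293 to 308 CPM in wild-type libraries (log2 fold change -0.17, adjusted p = 0.00177). In both genes the groups stood clear of each other although the change was small. Their partners Kif3a (log2 fold change -0.04, 95% interval -0.18 to 0.09) and Kifap3 (-0.07, interval -0.23 to 0.10) did not pass, and their groups overlapped. Kif17, a kinesin-2 motor of dendrites, was scarce at 1.6 ± 0.361 CPM in Taf8-deleted and 1.13 ± 0.193 CPM in wild-type cortex (SD), and missed the threshold (log2 fold change 0.48, adjusted p = 0.0568). Kif17 passed without Taf8-deleted replicate 2 (0.55, adjusted p = 0.049), Taf8-deleted replicate 4 (0.55, adjusted p = 0.0433) or wild-type replicate 2 (0.58, adjusted p = 0.0406). Without any 1 of the 5 other libraries it did not pass, and its lowest value was 0.34 without Taf8-deleted replicate 3 (adjusted p = 0.175).

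The 6 kinesin-3 genes went in both directions. Kif13b, which carries membrane proteins and vesicles (Entrez gene 16554, chromosome 14, 64652492 to 64809618), had the largest fall of the kinesin genes, with 23.6, 21.9, 21.5 and 20.4 CPM in Taf8-deleted and 34.7, 34.3, 31.5 and 31.2 CPM in wild-type libraries. All Taf8-deleted libraries lay far below all wild-type libraries, and Kif13b was 1.51-fold lower (log2 fold change -0.59, SE 0.06, adjusted p = 1.38e-05). Its paralogue Kif13a, a motor of endosomal traffic, was at 56.8 ± 1.91 CPM in Taf8-deleted and 57.4 ± 2.18 CPM in wild-type cortex, with a 95% interval of -0.11 to 0.08 for its log2 fold change. Per length, Kif13b held 31.0 to 32.7% of the Kif13 level in Taf8-deleted and 39.5 to 42.3% in wild-type libraries.

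Kif16b, a motor of early endosomes (Entrez gene 16558, chromosome 2, 142618340 to 142901609), moved the other way. It had 18.9, 18.4, 16.9 and 16.6 CPM in Taf8-deleted libraries, against 12.1, 11.7, 12.1 and 12.7 CPM in wild-type libraries. The groups did not overlap, and Kif16b was 1.46-fold higher (log2 fold change 0.54, SE 0.06, adjusted p = 3.94e-05). Kif1a, the motor of synaptic and dense-core vesicle precursors, had 561, 556, 551 and 566 CPM in Taf8-deleted and 675, 644, 687 and 644 CPM in wild-type libraries (log2 fold change -0.25, SE 0.03, adjusted p = 0.00013). The libraries of each group lay close together, and the groups did not overlap.

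Kif1b, whose protein forms carry mitochondria or synaptic vesicle precursors, had 1041, 952, 988 and 1065 CPM in Taf8-deleted and 874, 929.5, 1015 and 845 CPM in wild-type libraries. It just missed the threshold (log2 fold change 0.14, adjusted p = 0.0556) and passed without wild-type replicate 3, the highest of its group (0.20, adjusted p = 0.00453). Leaving out wild-type replicate 4 instead gave the lowest value (0.092, adjusted p = 0.226). The counts are per gene and do not tell its forms apart. Per length, Kif1a held 46.7 to 48.6% of the Kif1 level in Taf8-deleted and 52.4 to 54.9% in wild-type libraries. Kif1b held 46.3 to 48.8% and 39.5 to 43.1% in the same order of groups, and for neither gene did the shares of the groups overlap. These are not separate results. Kif1c held only 4.87% and 5.27% of the level, so a lower share of Kif1a leaves a higher share to Kif1b. Kif1c, a motor of Golgi-derived and dense-core vesicles, was at 44.7 to 49.6 CPM in Taf8-deleted and 48.5 to 56.4 CPM in wild-type libraries, and it was called although the groups overlapped (log2 fold change -0.18, adjusted p = 0.017).

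**Figure D2:**
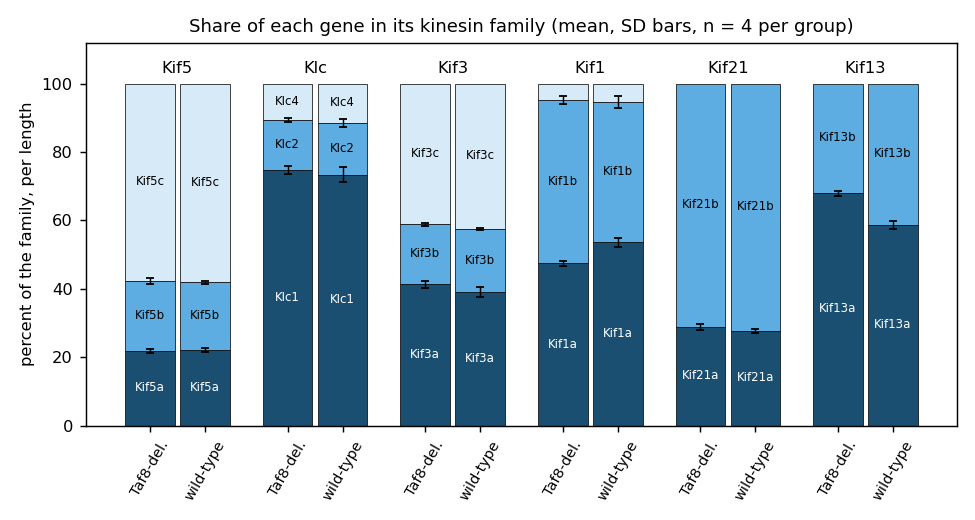
Share of each gene in the summed level of its family, in percent of CPM per kilobase (y axis), for 6 families in Taf8-deleted (left bar) and wild-type cortex (right bar). Segments are means and bars at their borders are SD, n = 4 embryos. Kif13b holds 32.0% of its family in Taf8-deleted and 41.3% in wild-type cortex, and Kif1a 47.4% and 53.6%, while the Kif5 segments almost coincide.

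Among the microtubule regulators, Kif21a, Kif21b and Kif26a fell clearly and Kif2a did not pass, against 29.6% of all genes called lower. Kif21b, a neuronal kinesin that restrains microtubule growth (Entrez gene 16565, chromosome 1, 136131390 to 136178001), had 818, 770.0, 793 and 827 CPM in Taf8-deleted libraries, against 1191, 1116, 1125 and 1096 CPM in wild-type libraries. The gap between the groups was wide next to the spread within them, and Kif21b had the smallest adjusted p of the kinesin genes (log2 fold change -0.50, SE 0.04, adjusted p = 1.79e-06). Kif21a, its paralogue (chromosome 15, 90933275 to 91050382), had 232, 220.0, 219.8 and 252 CPM in Taf8-deleted and 313, 296, 317 and 303 CPM in wild-type libraries (log2 fold change -0.41, SE 0.05, adjusted p = 5.11e-05). The split of the pair by length was 28.9 ± 0.828% Kif21a in Taf8-deleted and 27.7 ± 0.660% in wild-type cortex.

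Kif26a, an unconventional kinesin that binds microtubules without ATP-driven movement (Entrez gene 668303, chromosome 12, 112143974 to 112181747), had 161, 166, 163 and 175 CPM in Taf8-deleted and 246, 235, 212 and 229 CPM in wild-type libraries. Again no library crossed into the other group (log2 fold change -0.47, SE 0.05, adjusted p = 2.28e-05). Kif2a, a microtubule depolymerase, was at 133 ± 8.1 CPM in Taf8-deleted and 137 ± 13.4 CPM in wild-type cortex, with overlapping groups (95% interval of the log2 fold change -0.19 to 0.12). The 4 genes together were at 179 ± 7.31 RPKM in Taf8-deleted and 238 ± 6.43 RPKM in wild-type cortex.

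Of the cytoplasmic minus-end motors, Kifc2, found in neurons, had 36.5, 37.4, 37.8 and 38.3 CPM in Taf8-deleted and 32.5, 32.2, 30.7 and 26.8 CPM in wild-type libraries. All Taf8-deleted libraries were higher (log2 fold change 0.30, SE 0.06, adjusted p = 0.0018). Kifc3, a motor of cell junctions and the Golgi apparatus, was at 23.8 ± 1.08 CPM in Taf8-deleted and 23.9 ± 1.05 CPM in wild-type cortex (95% interval of the log2 fold change -0.13 to 0.11).

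**Figure D3:**
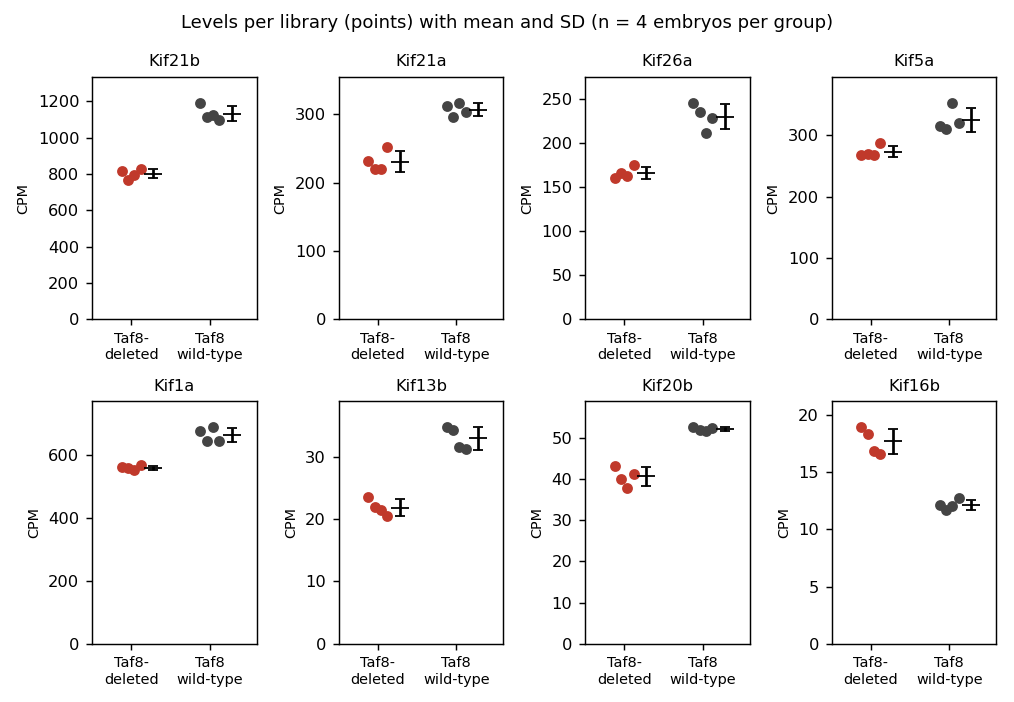
CPM of 8 kinesin genes in each library (points), with the mean and SD beside them, Taf8-deleted (red) left of wild-type (dark grey), all y axes from 0. In none of the 8 panels do the groups overlap. Kif16b is the panel in which the Taf8-deleted libraries are higher, at 16.6 to 18.9 CPM.

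These 12 falls stood in a tissue in which neuron markers were lower too. The test called 14 of 20 neuron markers lower and 1 higher (29.6% and 29.5% over all genes), with a median log2 fold change of -0.33. Their summed level was 7169 to 7932 CPM in Taf8-deleted and 8542 to 10090 CPM in wild-type libraries. None of the 20 was at 0. Fewer neurons and less RNA per neuron cannot be told apart in bulk samples, and the part of the neuron share in the kinesin values was not tested.

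The kinesins of cilia and centrioles held both of the largest rises. Kif9, a motor of motile cilia (Entrez gene 16578, chromosome 9, 110476738 to 110525174), had 7.65, 4.19, 4.67 and 3.94 CPM in Taf8-deleted and 2.12, 2.19, 2.36 and 3.28 CPM in wild-type libraries. The groups did not overlap, but Taf8-deleted replicate 1 and wild-type replicate 4 were each the highest of their group, and Kif9 was 2.05-fold higher (log2 fold change 1.04, SE 0.23, adjusted p = 0.00264). The log2 fold change of Kif9 was 0.76 without Taf8-deleted replicate 1 alone and 1.18 without wild-type replicate 4 alone. Without both libraries it was 0.93 (adjusted p = 0.000554), in a fit chosen after seeing the data. That fit did not even out the choroid plexus markers. They stood at 15.99 to 208 CPM in the Taf8-deleted libraries left and at 16.8 to 24.5 CPM in the wild-type libraries left. Kif19a, which trims microtubules and so limits the length of motile cilia (chromosome 11, 114764970 to 114791166), had 1.61, 1.66, 1.42 and 1.09 CPM in Taf8-deleted and 0.664, 0.723, 0.657 and 0.998 CPM in wild-type libraries. It was 1.89-fold higher, at 38 to 61 counts in Taf8-deleted and 20 to 42 counts in wild-type libraries (log2 fold change 0.92, SE 0.20, adjusted p = 0.00291). Without the 2 libraries rich in choroid plexus markers its log2 fold change was 1.01 (adjusted p = 0.00513). It was 0.85 without Taf8-deleted replicate 1 alone and 1.06 without wild-type replicate 4 alone.

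Kif7, which acts at the tip of the primary cilium in Hedgehog signalling (chromosome 7, 79698098 to 79715772), had 30.3, 34.0, 31.7 and 28.7 CPM in Taf8-deleted and 26.5, 23.4, 21.7 and 25.6 CPM in wild-type libraries. Every Taf8-deleted library was above every wild-type library (log2 fold change 0.36, SE 0.07, adjusted p = 0.00181). Its exons share 19.1% of their bases with a gene on the opposite strand, 9330171B17Rik. Kif27, the paralogue of Kif7, did not pass, with 12.9 CPM in Taf8-deleted replicate 1 and 6.56 to 9.83 CPM in the others, against 6.27 to 8.6 CPM in wild-type libraries (adjusted p = 0.151). Kif6, another gene of motile cilia, had 3.06 CPM in Taf8-deleted replicate 1 and overlapping values of 1.70 to 2.23 CPM in the 7 other libraries (adjusted p = 0.541). Kif24, which acts on centrioles, did not pass over all libraries (log2 fold change -0.16, adjusted p = 0.113). It was called lower without Taf8-deleted replicate 1 (-0.22, adjusted p = 0.0387) and without wild-type replicate 3 (-0.23, adjusted p = 0.016).

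Markers of motile ciliated cells were higher in 3 of 17 tested, lower in 0 and not past the test in 14, with a median log2 fold change of 0.62. Their summed level was 143, 83.2, 83.5 and 68.2 CPM in Taf8-deleted and 68.2, 71.4, 73.2 and 87.4 CPM in wild-type libraries, so these groups overlapped. Choroid plexus markers were higher in 1 of 10 and not past the test in 9, with a median log2 fold change of 1.48. Their summed level varied widely between libraries, from 15.99 to 1267 CPM in Taf8-deleted and from 16.8 to 427 CPM in wild-type libraries. A call missed at such a spread does not show that these markers were unchanged. Over all genes tested 29.5% were higher and 29.6% lower. The part of either marker list in the values of Kif9, Kif19a and Kif7 was not tested. None of the motile ciliated or choroid plexus markers in the table was at 0 throughout, and only the choroid plexus gene Kcnj13 was at 0 in some, in 2 libraries.

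**Figure D4:**
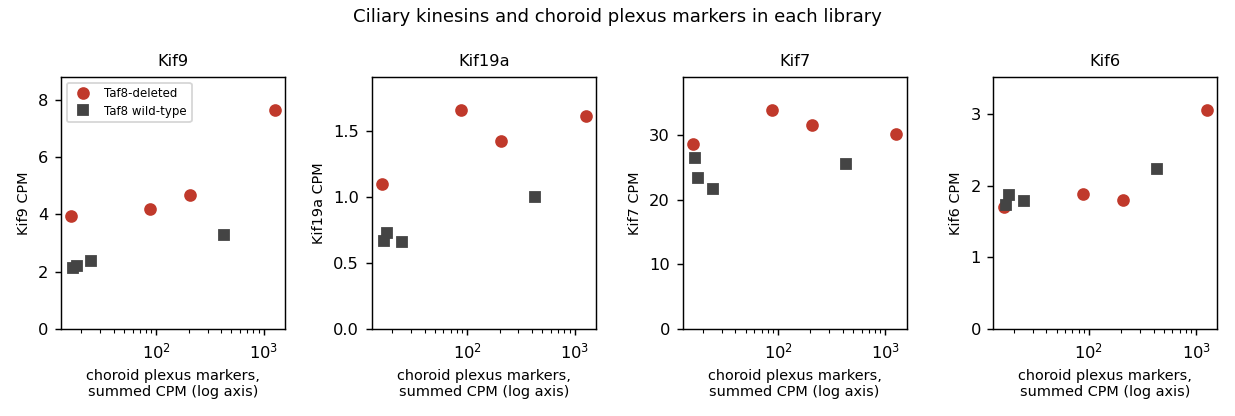
CPM of 4 ciliary kinesin genes (y axes from 0) against the summed CPM of 10 choroid plexus markers (log x axis) in each library, Taf8-deleted as red circles and wild-type as dark squares. Kif9 and Kif6 are highest in Taf8-deleted replicate 1, the library with 1267 CPM of markers, and among the wild-type libraries Kif9 is highest in replicate 4, at 3.28 CPM.

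The promoters of Kif9, Kif24 and Kif7 are shown for a half-site of RFX factors, which are known to bind promoters of ciliary genes. The letters searched were GTTGCC and, for the other strand, GGCAAC, and they stood in 3 of 6 windows of the cilium and centriole genes, 2 of them from Kif9, against 12.5% of the 32851 windows of the RefSeq table. Over all kinesin genes they stood in 10 of 32 windows, 3 of them among the 5 of kinesin-2, so the match was not confined to the ciliary genes. The windows of Kif6 and Kif27 hold no match, and no window was matched for Kif19a. A window runs from 250 bases before a start to 50 bases after it, on GRCm38.p6. Below are 110 bases from 80 before the start to 30 after it, 5′ to 3′ on the gene's strand, with the match in capitals. A match describes letters and does not show that a factor binds.
Kif9 promoter (chr9:110476914-110477023, plus strand): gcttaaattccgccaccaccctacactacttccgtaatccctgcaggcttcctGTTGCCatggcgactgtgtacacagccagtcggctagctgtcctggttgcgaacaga
Kif24 promoter (chr4:41464819-41464928, minus strand): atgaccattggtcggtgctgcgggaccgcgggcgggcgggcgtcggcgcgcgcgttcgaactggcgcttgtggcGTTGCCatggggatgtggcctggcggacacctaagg
Kif7 promoter (chr7:79715678-79715787, minus strand): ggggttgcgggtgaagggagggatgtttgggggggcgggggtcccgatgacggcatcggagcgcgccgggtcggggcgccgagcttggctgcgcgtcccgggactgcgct
Kif9, which rose, and Kif24, which did not pass the test, both hold the half-site near the start, at 27 and 6 bases before it. Kif7, which rose, holds no match in its window.

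The 7 spindle and chromosome kinesins changed little, with 1 called higher (Kif4), 1 called lower (Kif20b) and a median log2 fold change of 0.02. Over all genes tested 29.5% were higher and 29.6% lower. Kif20b, which acts in the last step of cytokinesis (Entrez gene 240641, chromosome 19, 34922335 to 34975750), had 43.2, 40.0, 37.9 and 41.3 CPM in Taf8-deleted and 52.5, 51.8, 51.7 and 52.4 CPM in wild-type libraries. The wild-type values were almost equal and all lay above the Taf8-deleted values (log2 fold change -0.36, SE 0.04, adjusted p = 6.16e-05). Kif4, a motor on chromosome arms and the spindle midzone that is X-linked (chromosome X, 100626065 to 100727271), had 90.2, 92.8, 96.9 and 93.1 CPM in Taf8-deleted and 86.5, 84.3, 71.0 and 79.3 CPM in wild-type libraries (log2 fold change 0.22, SE 0.06, adjusted p = 0.0091). The groups did not overlap. Ddx3y, a gene on the Y chromosome, was at 41.5 to 53.8 CPM over the 8 libraries, and the X-linked Xist was at 0.053 to 0.81 CPM. Every library of both groups thus held RNA from a Y chromosome.

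Kif15, a motor that keeps spindle poles apart, had a log2 fold change of 0.03 with a 95% interval of -0.08 to 0.13. The intervals were -0.14 to 0.15 for Kif18a, which aligns chromosomes, -0.13 to 0.28 for Kif18b, which shortens astral microtubules, and -0.14 to 0.19 for Kif22, which pushes chromosome arms. Kifc1, which bundles microtubules at spindle poles, was at 40.1 ± 0.722 CPM in Taf8-deleted and 41.2 ± 5.93 CPM in wild-type cortex (interval -0.24 to 0.17). Without wild-type replicate 3 Kifc1 was called lower (log2 fold change -0.14, adjusted p = 0.0139). That library was the lowest of its group for Kif4, Kif15, Kif18b, Kif20b, Kif22 and Kifc1, and its summed level of the 7 genes was 110.1 RPKM against 128.5 to 135.2 RPKM in the other wild-type libraries. Its dividing-cell markers were also lowest, at a summed 2580 CPM against 2815 to 2990 CPM, and their part in the kinesin values was not tested. Kifc1 has a close paralogue, Kifc5b, with which it can share reads, so its level is uncertain.

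Among 20 dividing-cell markers, 8 were called lower and 0 higher (29.6% and 29.5% over all genes), and the median log2 fold change was -0.09. Their summed level was 2607 to 2696 CPM in Taf8-deleted and 2580 to 2990 CPM in wild-type libraries, with overlapping groups.

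The promoters of these 7 genes are shown because 6 of them share a motif, among them Kif4, which rose, Kif20b, which fell, and 4 genes that did not pass the test. The cell cycle homology region (CHR), known from promoters of genes of G2 and mitosis, was searched as TTTGAA and, for the other strand, TTCAAA. It stood in 6 of the 7 windows, against 17.9% of all 32851 windows. Capitals mark the match in the same 110 bases as above.
Kif4 promoter (chrX:100625985-100626094, plus strand): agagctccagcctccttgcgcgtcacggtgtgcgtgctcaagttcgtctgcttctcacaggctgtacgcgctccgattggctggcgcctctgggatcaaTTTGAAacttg
Kif15 promoter (chr9:122951001-122951110, plus strand): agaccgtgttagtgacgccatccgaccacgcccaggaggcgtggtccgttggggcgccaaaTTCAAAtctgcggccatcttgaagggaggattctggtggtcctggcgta
Kif18a promoter (chr2:109280658-109280767, plus strand): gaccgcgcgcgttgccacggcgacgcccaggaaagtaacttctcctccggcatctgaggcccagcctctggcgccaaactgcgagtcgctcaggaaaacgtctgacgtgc
Kif18b promoter (chr11:102925095-102925204, minus strand): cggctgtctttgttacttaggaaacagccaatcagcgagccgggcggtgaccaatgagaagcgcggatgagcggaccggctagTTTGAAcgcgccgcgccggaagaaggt
Kif20b promoter (chr19:34922278-34922387, plus strand): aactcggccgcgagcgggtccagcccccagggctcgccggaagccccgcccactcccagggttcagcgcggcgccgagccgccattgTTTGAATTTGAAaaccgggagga
Kif22 promoter (chr7:127042391-127042500, minus strand): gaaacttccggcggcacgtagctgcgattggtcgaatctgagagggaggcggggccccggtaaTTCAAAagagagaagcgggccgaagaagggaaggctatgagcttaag
Kifc1 promoter (chr17:33890604-33890713, minus strand): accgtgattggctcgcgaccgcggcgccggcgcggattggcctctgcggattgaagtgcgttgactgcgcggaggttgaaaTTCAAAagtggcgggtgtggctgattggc
Kif4, which rose, and Kif20b, which fell, hold the motif after the start, from base 20 in Kif4 and from bases 8 and 14 in Kif20b. It also lies after the start in Kif18b (base 4) and Kifc1 (base 2), and 19 and 17 bases before it in Kif15 and Kif22. None of these 4 genes passed the test. Kif18a, which did not pass either, holds no match.

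Other genes of the kinesin superfamily, 13 named outside the list of 36, were read from the same fit. The counts covered 11 of them and the test 9, of which 3 rose, 2 fell and 4 did not pass, against 29.5% higher and 29.6% lower over all genes. The spindle midzone motor Kif20a, in the same subfamily as Kif20b, had 129.8, 135, 137 and 132 CPM in Taf8-deleted and 104, 98.0, 78.9 and 99.3 CPM in wild-type libraries (log2 fold change 0.49, adjusted p = 0.000223), a rise where Kif20b fell. The difference between these 2 genes was not tested. The kinetochore motor Cenpe (log2 fold change 0.25, adjusted p = 0.000321) and the midzone motor Kif23 (0.18, adjusted p = 0.0118) also rose. Kif26b, the paralogue of Kif26a, fell by 0.33 on the log2 scale (25.8 ± 1.67 CPM in Taf8-deleted, 32.6 ± 1.93 CPM in wild-type cortex, adjusted p = 0.00087). The light chain gene Klc3, at 0.707 ± 0.200 against 1.28 ± 0.238 CPM, fell by 0.81 (adjusted p = 0.0118). Kif2c, Kif11, Kif14 and Kifc5b did not pass, and Kif2b and Kif12 had no more than 2 counts in any library.

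Adaptors and cofactors that link kinesins to cargo or microtubules showed 25 falls and 10 rises among 45 genes tested (29.6% and 29.5% over all genes), with a median log2 fold change of -0.15. Sybu, which links kinesin-1 to syntaxin vesicles, had 29.7, 30.1, 31.7 and 32.6 CPM in Taf8-deleted and 67.6, 69.5, 77.7 and 75.2 CPM in wild-type libraries, with a wide gap between the groups (log2 fold change -1.23, adjusted p = 7.6e-08). The mitochondrial adaptor Trak1 (log2 fold change -0.60) and the receptor scaffold Grip1 (-0.58), both partners of kinesin-1, were lower as well (adjusted p = 8.58e-07 and 7.95e-07). Among the higher ones were the scaffold Mapk8ip3 (0.41, adjusted p = 1.56e-05), the mitochondrial GTPase Rhot2 (0.55, adjusted p = 1.88e-05) and the microtubule-binding cofactor Map7d3 (1.45, adjusted p = 4.91e-05), which is scarce at 1.63 against 0.593 CPM.

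Cytoplasmic dynein and dynactin genes, the machinery of transport in the opposite direction, showed 13 falls and 8 rises among 33 tested (29.6% and 29.5% over all genes), with a median log2 fold change of -0.10. The light chain Dynll1 fell by 0.69 on the log2 scale, at 168 ± 8.65 CPM in Taf8-deleted and 271 ± 3.34 CPM in wild-type cortex (adjusted p = 5.17e-07). Its paralogue Dynll2 rose by 0.51, at 584 ± 19.0 and 409 ± 5.55 CPM in the same order of groups (adjusted p = 9.86e-07). The dynactin subunit Dctn4 was lower (log2 fold change -0.78, adjusted p = 2.93e-07), and so was Dynlt1a (2.69 ± 0.144 CPM in Taf8-deleted and 5.41 ± 0.312 CPM in wild-type cortex, adjusted p = 8.5e-06), whose near-identical copies make its level uncertain. The dynein adaptor Bicd2 (0.43, adjusted p = 6.05e-06) and the dynactin subunit Actr1b (0.21, adjusted p = 0.000648) were higher.

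Marker lists of cells from outside the neural lineage also moved, and their part in the kinesin values was not tested. Over all genes tested 29.5% were higher and 29.6% lower. Calls of higher covered 13 of 15 endothelial and pericyte markers and 8 of 13 meningeal fibroblast markers. They also covered 6 of 12 microglia and macrophage markers, with 1 lower, and 5 of 9 red blood cell markers. Their summed levels were 294 to 378, 291 to 430.4, 75.5 to 97.0 and 350 to 472 CPM in Taf8-deleted libraries, against 242 to 269, 203 to 269, 68.0 to 79.4 and 259 to 338 CPM in wild-type libraries.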

How the data were processed

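RNA of 8 libraries of embryonic mouse cortex was analysed, 4 Taf8-deleted and 4 wild-type, grouped by the labels. The deposited values are raw counts per Entrez gene with a gene length, made with Subread 1.5.0 and featureCounts on mm10, per the submitters' processing notes. Per the labels' protocols the libraries were made with a stranded poly(A) kit. The sources used here do not give the annotation, the strand setting of the counting or the treatment of multi-mapping reads. Levels of genes with close copies, and of overlapping genes, are uncertain for that reason: 6 kinesin genes share over 10% of their exon bases with a gene on the opposite strand (Kif3c 35.3%, Kifc3 24.1%, Kif2a 19.2%, Kif7 19.1%, Kif4 15.1% and Klc2 10.6%, GENCODE M21).

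The series table and the single-sample files differed in 0 values. Symbols came from RefSeq (25275 genes), and coordinates from its GRCm38.p6 table, which has the mm10 sequence. Totals were 26312505 to 65523487 counts. No 2 libraries of a group were duplicates (chi-square over its degrees of freedom 3.56 to 27.0).

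Group differences came from the quasi-likelihood test of edgeR 4.0.16 (R 4.3.3) after TMM scaling and filterByExpr, with p adjusted over 15649 genes by Benjamini-Hochberg and called under 0.05. CPM are counts per 1e6 of the TMM-scaled library size. Positive log2 fold changes mean higher in Taf8-deleted cortex. SE is the log2 fold change over the square root of F, and 95% intervals use the fit's degrees of freedom. RPKM here is scaled CPM per kilobase of the deposited length. The steps were tested on simulated counts. Alternatives were other scalings and filters, DESeq2 1.42.0, limma 3.58.1 voom, a replicate block, a test against a 1.2-fold change and each library left out. A fit without Taf8-deleted replicate 1 and wild-type replicate 4 was chosen after seeing the data.

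Promoter windows came from the RefSeq table for 28 of the 36 genes (32 windows). The kinesin genes and all lists were chosen with earlier results of these data known. All 36 kinesin genes are named, with every measured gene of the list of other kinesins and the 3 higher and 3 lower genes with the smallest adjusted p of the other lists.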

Additional observations from a re-analysis of the deposited data

Results flagged for a closer look

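A single library stood far from the 3 others of its group in 10 of 120 sets of 4 values (60 named genes in 2 groups), where chance flags about 1 in 20. That rate does not apply to 3 of the 10, in Kif2b and Kif12, which are 1 or 2 counts in a library against 0 in the others. In Taf8-deleted replicate 1, Kif6 was at 3.06 CPM, above 1.70 to 1.88 CPM in the other 3 libraries, and Cenpe was at 138 CPM, above 131 to 132 CPM. In the same library Kif12, nearly absent from this tissue, was at 0.0527 CPM (2 counts) and at 0 in the other 3. Taf8-deleted replicate 4 was high for Kif5a, at 287 CPM against 268 to 270.1 CPM.

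Wild-type replicate 3 was flagged for 4 kinesin genes. It was high for Kif2a, at 157 CPM against 128 to 132 CPM, and low for Kif22, at 72.2 CPM against 89.5 to 92.8 CPM. It was also low for Kif24, at 14.1 CPM against 16.8 to 17.0 CPM, and for Kifc3, at 22.4 CPM against 24.4 to 24.5 CPM. Wild-type replicate 4 had 0.0263 CPM of Kif2b and 0.0263 CPM of Kif12, 1 count each, both at 0 in the other 3 wild-type libraries.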

How the results depend on the processing

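Over all libraries 12 kinesin genes were lower and 6 higher. When each library was left out in turn the counts were 11 to 14 lower and 6 to 7 higher, newly called genes included. With library size alone 10 were higher, and 10 were lower. Upper-quartile scaling gave 9 higher and 12 lower, with Klc2, Kif1b and Kif17 newly called higher. A filter of 1 CPM in 4 libraries gave 8 higher and 12 lower, with Kif1b and Kif17 newly called higher. Against a 1.2-fold change 3 were higher and 5 lower, with 2307 genes higher and 2328 lower over the whole table, since that test asks for larger changes. The counts over all genes stayed within 1.5 times of 4624 and 4633 under the other settings, and leaving out 1 library gave 3999 to 4721 higher and 4405 to 4729 lower. Upper-quartile scaling moved the median log2 fold change of all genes from 0.01 to 0.04 and library size alone to 0.05.

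Without both Taf8-deleted replicate 1 and wild-type replicate 4, 7 kinesin genes were higher and 11 lower, and Kif1c lost its call (log2 fold change -0.16, adjusted p = 0.0903). With library size alone Kif5b (-0.14, adjusted p = 0.0545) and Kif1c (-0.14, adjusted p = 0.0652) lost their calls, while Klc1, Klc2, Kif1b and Kif17 were called higher. No called kinesin gene changed sign. Over the kinesin genes 583 values under alternatives kept sign and call, 15 lost a call, 18 gained one and 32 changed sign. Sign changes were seen in genes near 0 that did not pass the test, and the cause was not tested. Log2 fold changes with the other sign were Klc4 0.0124, Kif13a 0.0265, Kif2a 0.00281, Kifc3 0.0354, Kifc1 0.00807 with library size alone, Kif13a 0.014, Kifc3 0.023 with upper-quartile scaling, Kifc3 0.000883 with a filter of 1 CPM in 4 libraries. They were also Kifc3 0.00489 with limma voom, Kif6 -0.00596, Kif18a -0.045, Kif14 -0.00952 without Taf8-deleted replicate 1 and wild-type replicate 4, Kif18a -0.00405, Kif2c -0.00412 with median-of-ratios size factors, Kif18a -0.00268, Kif2c -0.00256 with no filter, Kif18a -0.00392, Kif2c -0.00455 with DESeq2. Over the libraries left out in turn the log2 fold changes ran Kif3a -0.0891 to 0.0192, Kifap3 -0.129 to 0.0169, Kif2a -0.0811 to 0.0329, Kifc3 -0.0398 to 0.0117, Kif6 -0.0996 to 0.237, Kif15 -0.0128 to 0.0469, Kif18a -0.0487 to 0.0347, Kif18b -0.0269 to 0.129, Kif22 -0.0544 to 0.0533, Kifc1 -0.137 to 0.00559, Kif2c -0.0696 to 0.0412, Kif14 -0.0456 to 0.0587, Kifc5b -0.0877 to 0.0554.

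Replicate numbers do not pair the libraries: deviations of same-numbered libraries correlated at -0.30, 0.056, -0.14 and -0.48, and no library matched its own number best. With a replicate block 6 kinesin genes were higher and 11 lower, Kif5b losing its call (log2 fold change -0.18, adjusted p = 0.0696), and 4115 and 4170 genes were higher and lower over all. Depth limits the scarcest kinesin genes, Kif17 and Kif19a, which had 20 to 70 counts per library.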

Other observations

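The TATA box letters TATAAA, searched on both strands, stood in 4 of 32 promoter windows of the kinesin genes, against 13.6% of 32851 windows. Between 45 and 16 bases before the start on the gene's own strand they stood in 0 of the 32, against 2.14% of all windows. The GC box letters GGGCGG, or CCGCCC on the other strand, stood in 23 of 32, against 35.7% of all windows, and in all 4 windows of Kif2a, Kif21a and Kif26a. The CCAAT box, searched as CCAAT or ATTGG, stood in 13 of 32, against 37.4%. Some genes have 2 windows, which can share bases, and none of these letters shows that a factor binds.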
